A study of Rattus norvegicus with 12 samples.

Results

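Adult semilunar valves were compared with neonatal semilunar valves, the flaps at the roots of the aorta and the pulmonary artery, in Wistar rats. The comparison used 6 of the 12 arrays of the series: the 3 titled adult valve and the 3 titled neonatal valve, chosen by title alone. The other 6 arrays, 3 of neonatal and 3 of adult proximal aorta, served to estimate the spread and for a closing comparison. Each array was hybridised with RNA from whole tissue, and no sorting of cells is named. Neonatal valves were taken within 24 h of birth. The source entries call the adult animals male and give no age. No treatment, transgene or operation is named for any group. The labels do not say whether the 3 samples of a group came from separate animals, litters or pools, so the p-values measure the spread between these samples only, which may be partly technical.

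A semilunar valve is a thin leaflet made of interstitial cells within layers of collagen, proteoglycan and elastic fibre, covered by endothelium. Around birth the interstitial cells still divide and the matrix is being laid down and sorted into layers. In the adult the cells are largely quiescent, while the leaflet opens and closes with each heartbeat. Macrophages and other immune cells are known residents of the postnatal leaflet.

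The titles and the source entries of the 3 neonatal valve arrays match, but their description and tissue entries name adult aorta, while the arrays titled adult aorta carry those of neonatal valve. Igf2, a growth factor made before and shortly after birth, read 6391, 8898 and 6189 on these arrays and 352, 376 and 184 on the adult valve arrays, which follows the titles. Xist, the RNA made from the inactive X chromosome of females, read 10998 to 18362 on all 6 valve arrays. On the 6 aorta arrays the same Xist probe set read 5.08 to 297. The other Xist probe sets read 1624 or more on every valve array and 84.2 or less on every aorta array. Eif2s3y, a Y chromosome gene, read 134, 6.03 and 3.32 on the neonatal and 3.38, 8.91 and 1.39 on the adult valve arrays, the latter labelled male, and 1379 to 2557 on the aorta arrays. Uty, another Y chromosome gene, went the other way on its brighter probe set, with 1275 to 2695 on the valve arrays and 580 to 764 on the aorta arrays. Its second probe set read 15.7 to 38.9 on the valve arrays and 34.5 to 113 on the aorta arrays. Xist and Eif2s3y thus read as in female tissue on the valve arrays, against the male label of the adult animals. The brighter Uty probe set did not, and the sex of the animals was not settled. All signals here are MAS5 units on a linear scale, scaled by the authors to 1 trimmed mean per array (500.1 to 500.2). On neonatal aorta arrays 2 and 3, which lack the added control RNAs, the control probe sets read 2.52 to 45.2, so signals of that size could not be told from absent RNA, and fold changes that start or end there are not exact.

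A measure of how complete the transcripts were moved with age. Beta-actin is read near its 3' end and near its 5' end, and the quotient of these signals (3' over 5', the beta-actin ratio below) rises when transcripts are incomplete. It was 7.24, 7.86 and 8.84 on the neonatal and 13.99, 10.6 and 12.7 on the adult valve arrays. The groups did not overlap, although the exact two-sided permutation test of 3 against 3 arrays cannot give a p below 0.1, and it gave 0.1. The same quotient for GAPDH was 1.97, 2.10 and 2.60 against 3.88, 2.78 and 5.13 (0.1 in the same test). That of Dap, an added control and not tissue RNA, was 19.4, 13.6 and 12.6 against 19.7, 17.5 and 17.5 (0.3). On the aorta arrays that carry this control, the Dap quotient was 2.26 to 3.28. Because the beta-actin ratio separates the ages, age cannot be fully told apart from what this ratio measures. Whether that is the quality of the tissue RNA or its labelling was not tested. For the gene groups below, the number of calls kept with the ratio as a covariate is therefore given. A lost call does not show that the ratio accounts for a difference, because a covariate that separates the ages also widens the error of the age difference. The part of the ratio in the results was not tested beyond that. In whole tissue, fewer cells of a type and less RNA per cell cannot be told apart either.

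Of 18552 probe sets tested, 1709 (9.21%) passed in limma at an adjusted p under 0.05. Of these, 742 (4%) were higher and 967 (5.21%) were lower in adult valves. With the arrays centred on their medians the split turned, with 56.6% of 1543 calls higher in place of 43.4%. Counted with 1 probe set per gene, 1056 of 10411 genes passed (10.1%), of which 432 (4.15%) rose and 624 (5.99%) fell, and the median difference over all genes was -0.05 in log2. For 35.7% of genes the neonatal and adult arrays stood apart without overlap. With the beta-actin ratio as a covariate, 274 probe sets passed, 212 of them among the 1709. Without neonatal valve 1, 2 or 3 the count was 662, 853 or 893, and without adult valve 1, 2 or 3 it was 951, 1514 or 1136. Without adult aorta 1, which bears on the valve differences only through the shared spread, it was 3093. That array was unlike the other adult aortas for some genes. Eln, elastin, read 349 on it against 11900 and 19375, and H19, a noncoding RNA, read 18157 against 471 and 225. Such spread enters the SE of these genes in the valve, and adult aorta 1 also enters the aorta differences given below. The gene groups below are therefore read against these shares, and for called genes whose signals are given it is said which single valve arrays end the call when left out. Among called genes with several tested probe sets, 1 of 2 passed for Agtr2, Igf2bp2, Gclc, Col1a1, Col6a3, Acan, Ankh and F13a1, 1 of 3 for Clock, 2 of 4 for Klf2 and 3 of 4 for Sox4.

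Genes that rose strongly included enzymes that handle purines, aldehydes and toxic compounds, and secreted proteins of cartilage and host defence. Gda, the guanine deaminase of purine breakdown, read 229, 531 and 455 on the neonatal and 9874, 9997 and 22014 on the adult arrays, a 34.0-fold rise (5.09 ± 0.39 in log2, SE; limma adjusted p = 0.000181). Xdh, which makes uric acid in the same pathway, read 280, 762 and 342 against 5576, 5936 and 4233 and rose 12.4-fold. Both genes were several-fold higher on every adult array than on any neonatal array. Fcmr, a receptor for immunoglobulin M, read 90.2, 89.1 and 85.2 on the neonatal arrays, close together, and 990, 1662 and 2281 on the adult arrays, a rise of 4.14 ± 0.36 in log2. Reg3g, an antimicrobial lectin, read 171, 52.7 and 203 against 1994, 1725 and 16540, with adult valve 3 far above the other adult arrays. Ptprr, a receptor-type tyrosine phosphatase, also rose, by 3.95 ± 0.65 in log2. These 5 calls were kept without any 1 of the 6 valve arrays. Obp3, Fmo2, Dmbt1 and Il1a rose by 6.75, 4.59, 4.49 and 4.69 in log2, but their calls were less steady. The Obp3 and Fmo2 calls were lost without neonatal valve 1 or 3 or adult valve 1, and Fmo2 also without adult valve 2. Those of Dmbt1 and Il1a held only without adult valve 1. These genes each had neonatal signals in or below the range of absent RNA, so their rises have no exact size. Aldh3a1 and Omd, given below, also lost calls.

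Genes that fell strongly included fetal growth genes, embryonic matrix genes and muscle genes. Igf2bp3, an RNA-binding protein of fetal tissue that binds Igf2 transcripts, read 2198, 1173 and 1882 on the neonatal arrays and 2.48, 3.09 and 3.5 on the adult arrays. The adult values lie in the range of absent RNA, so the difference of -9.14 ± 0.39 in log2 (limma adjusted p = 1.09e-06) has no exact size. On the log2(signal + 32) scale it was -5.62. Cdh22, a cadherin, read 2077, 5179 and 3847 against 230, 118 and 115 (-4.57 ± 0.38). Myb, a transcription factor of blood precursors, read 323, 544 and 4494 against 11.2, 12.1 and 26.4. Its high value on neonatal valve 3 went with thymocyte RNAs on that array, given below. All of these calls were kept without any 1 valve array. Bex1 and Acta1 fell by 5.18 and 5.35 on the log2 scale, but their calls were less steady. The Bex1 call was lost without neonatal valve 1 or adult valve 1, and that of Acta1 without adult valve 3 or any neonatal array. H19, given below, also lost its call.

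**Figure D1:**
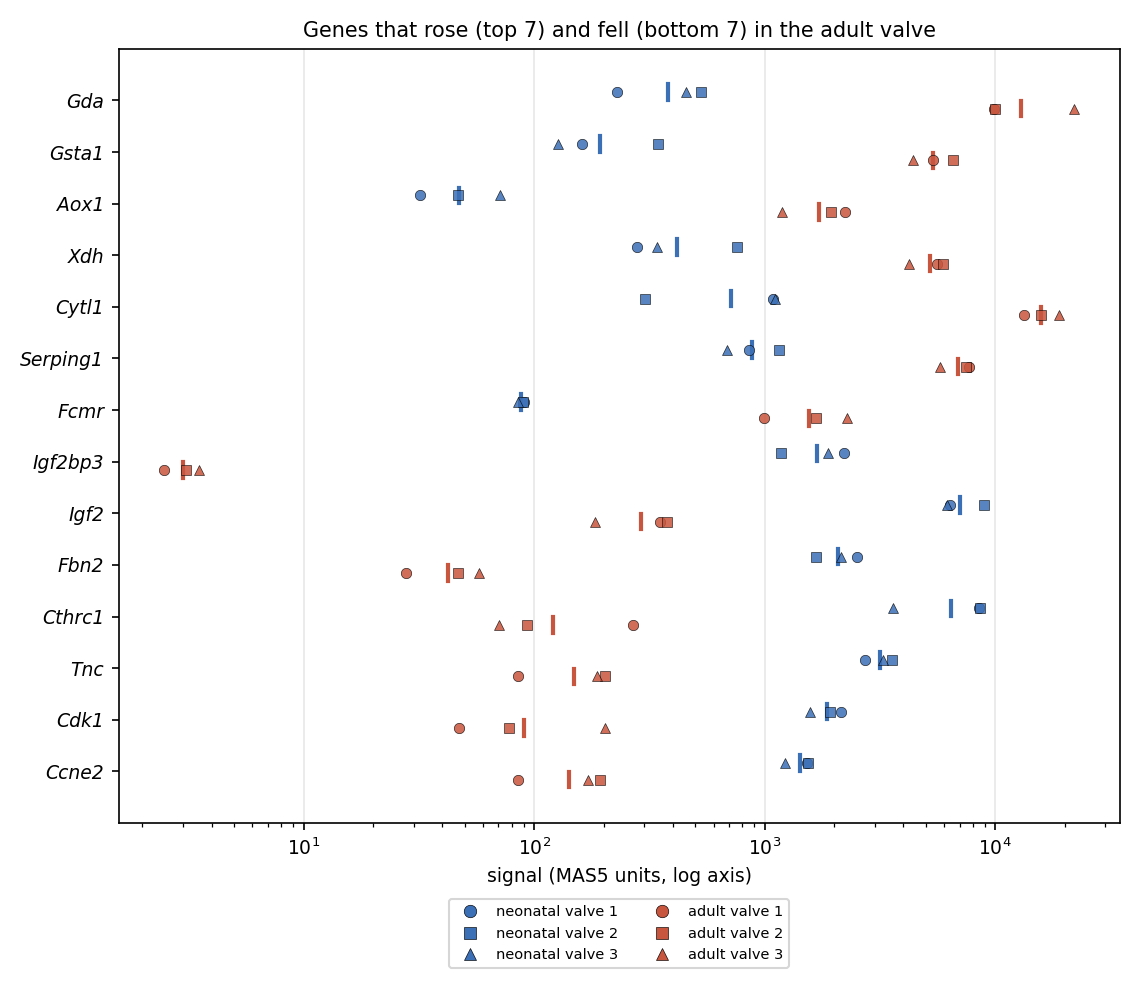
Signal of 14 genes on each of the 6 valve arrays (log axis, MAS5 units), with neonatal arrays in blue and adult arrays in red and the geometric mean of each group as a bar. No neonatal point overlaps an adult point in any row, and Igf2bp3 falls from 1173 or more to 3.5 or less.

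Most genes of DNA replication and mitosis fell in adult valves. Entry into S phase is driven by E2F factors, whereas genes of mitosis are held back in resting cells by a complex that binds the cell cycle homology region, TTTGAA, next to CCAAT boxes. The 120 bases before the start of 6 of these genes are printed as chosen examples. Each holds the letters named for its list, which most promoters of either list lacked (shares below), and all 6 hold CCAAT. Sequences are from RefSeq (rat build GRCr8), 5' to 3' in the direction of transcription. Capitals mark exact matches, on either strand, to TTTGAA and CCAAT, or to E2F-type letters, TTT followed by CC, CG, GC or GG and then CGC.
Cdk1, chr20:19265173-19265292, plus strand: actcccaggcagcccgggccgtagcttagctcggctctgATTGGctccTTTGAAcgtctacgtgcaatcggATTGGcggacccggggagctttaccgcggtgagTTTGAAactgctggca
Hmmr, chr10:25665216-25665335, minus strand: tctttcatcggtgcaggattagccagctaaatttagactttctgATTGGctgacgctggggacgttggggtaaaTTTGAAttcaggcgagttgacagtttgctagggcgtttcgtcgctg
Cks2, chr17:13727520-13727639, minus strand: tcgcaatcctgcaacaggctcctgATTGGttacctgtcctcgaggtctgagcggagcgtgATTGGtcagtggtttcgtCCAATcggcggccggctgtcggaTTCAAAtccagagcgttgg
Mcm5, chr19:13488693-13488812, plus strand: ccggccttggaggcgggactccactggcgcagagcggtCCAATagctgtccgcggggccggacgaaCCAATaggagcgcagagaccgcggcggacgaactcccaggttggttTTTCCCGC
Mcm7, chr12:22163179-22163298, minus strand: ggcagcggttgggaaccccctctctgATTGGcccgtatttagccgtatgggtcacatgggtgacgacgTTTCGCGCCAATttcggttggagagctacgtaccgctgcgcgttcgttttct
Gins1, chr3:160184800-160184919, plus strand: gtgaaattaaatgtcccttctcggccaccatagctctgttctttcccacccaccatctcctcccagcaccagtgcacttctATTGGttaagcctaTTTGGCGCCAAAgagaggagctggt
In Mcm7 the E2F-type match shares bases with a CCAAT box, and in Gins1 the E2F-type letters match on both strands over 1 stretch.

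Over the 250 bases before the start, TTTGAA together with CCAAT was found in 14 of 31 promoters of the mitosis list (45.2%) and in 0 of 26 of the DNA replication list. Among all 8658 promoters of genes tested the share was 3.8%, and among all 27457 promoters 5.76%. The E2F-type letters were found in 8 of 26 promoters of the DNA replication list (30.8%), in 1 of 31 of the mitosis list (3.23%) and in 3.38% of promoters of genes tested (1.81% of all promoters). CCAAT alone was common everywhere, at 74.2% and 53.8% of the mitosis and replication lists and 35.7% of genes tested. A match describes the letters of the window and does not show that a factor binds there.

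Of 29 replication genes tested, 23 fell, against 5.99% of all genes, and 29 of 29 had differences below 0. The median was -1.83 in log2. Cdt1, which loads the replicative helicase, read 1129, 1342 and 1425 on the neonatal and 61.7, 84.7 and 220 on the adult arrays, a 12.3-fold fall (-3.62 ± 0.42; limma adjusted p = 0.000968). The helicase subunit Mcm5 read 954, 1129 and 1304 against 82.0, 105 and 233, and Gins1 of the same helicase read 566, 567 and 611 against 44.7, 45.5 and 121. Adult valve 3 was the highest adult array for all 3 genes and still lay well below the neonatal arrays. Ccne2, a cyclin of S phase entry, read 1521, 1536 and 1219 against 84.9, 194 and 171 (-3.33 ± 0.33), and Pcna, the sliding clamp of the polymerase, fell only 2.19-fold from 6433, 6707 and 8232 to 3034, 3267 and 3405. Mcm7, whose promoter is printed above, read 1722, 1930 and 2396 against 812, 718 and 1040 (-1.24 ± 0.27), and its call was lost without neonatal valve 2 or 3 or adult valve 1 or 2, with differences of -1.39 to -1.11. The other genes named here were called in every fit that left out 1 valve array, as were 15 of the 23 in all. Leaving out 1 valve array gave 16 to 24 falls. With the beta-actin ratio as a covariate 9 of the 23 calls were kept, Cdt1, Mcm5, Gins1 and Ccne2 among them, with a list median of -1.57.

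Of 35 mitosis genes tested, 28 fell and 35 of 35 had differences below 0, with a median of -3.24. Cdk1, the kinase that starts mitosis, read 2142, 1927 and 1578 on the neonatal and 47.4, 78.1 and 202 on the adult arrays, a 20.6-fold fall (-4.36 ± 0.61; limma adjusted p = 0.00227). Its partner Ccna2 read 1083, 1069 and 1808 against 15.6, 51.0 and 86.1, and Aurkb, the kinase that corrects chromosome attachment, read 738, 2857 and 1060 against 25.2, 64.0 and 90.5. The neonatal and adult values of these 3 genes were more than 7-fold apart at their closest. Hmmr, a spindle protein, fell by 2.36 ± 0.39 and was called in every fit without 1 valve array. Cks2, a subunit of the Cdk1 complex, read 1469, 1062 and 1225 against 58.7, 114 and 246 (-3.40 ± 0.92), yet its call held only without adult valve 3 and was lost without any other valve array. Leaving out 1 valve array gave 18 to 29 falls, with 17 genes called in all 6 fits. With the beta-actin ratio as a covariate 2 of the 28 calls were kept, those of Aurkb and Mad2l1, a spindle checkpoint protein, and the list median was -2.24.

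A few cell cycle genes overlapped between the ages, and in these adult valve 3 stood apart. Tk1, the thymidine kinase of S phase, read 124 and 114 on adult valves 1 and 2 but 3698 on adult valve 3, above the neonatal 354 to 580. Ube2c and Pttg1, which act at the exit from mitosis, read 1154 and 794 on adult valve 3 against 92.7 to 144 on the other adult arrays. That array also carried the highest summed signal of red blood cell genes, 63191 against 11204 and 18539 on the other adult arrays. Of that list, the transcription factors Klf1 and Gata1 read 1605 and 1050 on adult valve 3. On the other valve arrays they read 66.5 or less and 76.8 or less. The part of the cells that carry these RNAs in the high Tk1, Ube2c and Pttg1 signals was not tested.

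Brakes on the cell cycle were mixed: 3 of 18 rose and 1 fell. Cbx7, a polycomb protein that restrains proliferation, read 157, 284 and 372 against 1657, 1327 and 1156, a 5.36-fold rise (2.42 ± 0.35) called in every fit without 1 valve array. Klf2, a transcription factor of flow-exposed endothelium, rose by 1.73 ± 0.37, and Rbl2, the pocket protein p130 of resting cells, by 1.25 ± 0.31, while Rbl1, the pocket protein of cycling cells, fell by 2.05 on the log2 scale. The call of Klf2 was lost without neonatal valve 1 or 2 or adult valve 3, that of Rbl2 without any array but neonatal valve 3, and that of Rbl1 without adult valve 1 or any neonatal array. Cdkn1a, the inhibitor p21, read 297, 470 and 350 against 1067, 1065 and 1311 without overlap but did not pass (1.64 ± 0.47; limma adjusted p = 0.0528). Cdkn1b, the inhibitor p27, overlapped (5174, 3777 and 5341 against 5346, 3978 and 4578). None of the 4 calls was kept with the beta-actin ratio as a covariate. The log2 differences were then 2.40 for Cbx7, 1.96 for Klf2, 0.70 for Rbl2 and -1.09 for Rbl1.

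Imprinted and fetal growth genes fell together, 10 of 16 tested, with a median of -2.18. Imprinted genes are expressed from the copy of 1 parent, and many regulate growth before birth. Besides Igf2, Meg3, a long noncoding RNA, read 2207, 4883 and 1421 against 87.0, 82.9 and 191 (-4.48 ± 0.44). Mest read 3399, 3601 and 1781 against 320, 205 and 794 (-2.90 ± 0.46), and Grb10, an adaptor that dampens insulin and IGF receptors, read 6714, 5969 and 4632 against 2303, 1786 and 1117 (-1.78 ± 0.32). All neonatal values of these genes lay above all adult values. Igf2bp2, a relative of Igf2bp3, fell 8.82-fold on its brightest probe set, and its second, with a difference of -0.67, did not pass. These falls were called in every fit without 1 valve array. H19, the noncoding RNA that neighbours Igf2, read 10231, 12338 and 9604 against 371, 365 and 319, a difference far beyond the spread among valve arrays, but its SE of 1.18 comes from all 12 arrays and its call was lost without any 1 valve array. Cdkn1c, an imprinted growth brake, did not pass (3968, 8032 and 2124 against 3311, 2268 and 1714). Leaving out 1 valve array gave 6 to 9 falls. With the beta-actin ratio as a covariate the calls of Igf2, Meg3, Grb10 and Igf2bp3 were kept.

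**Figure D2:**
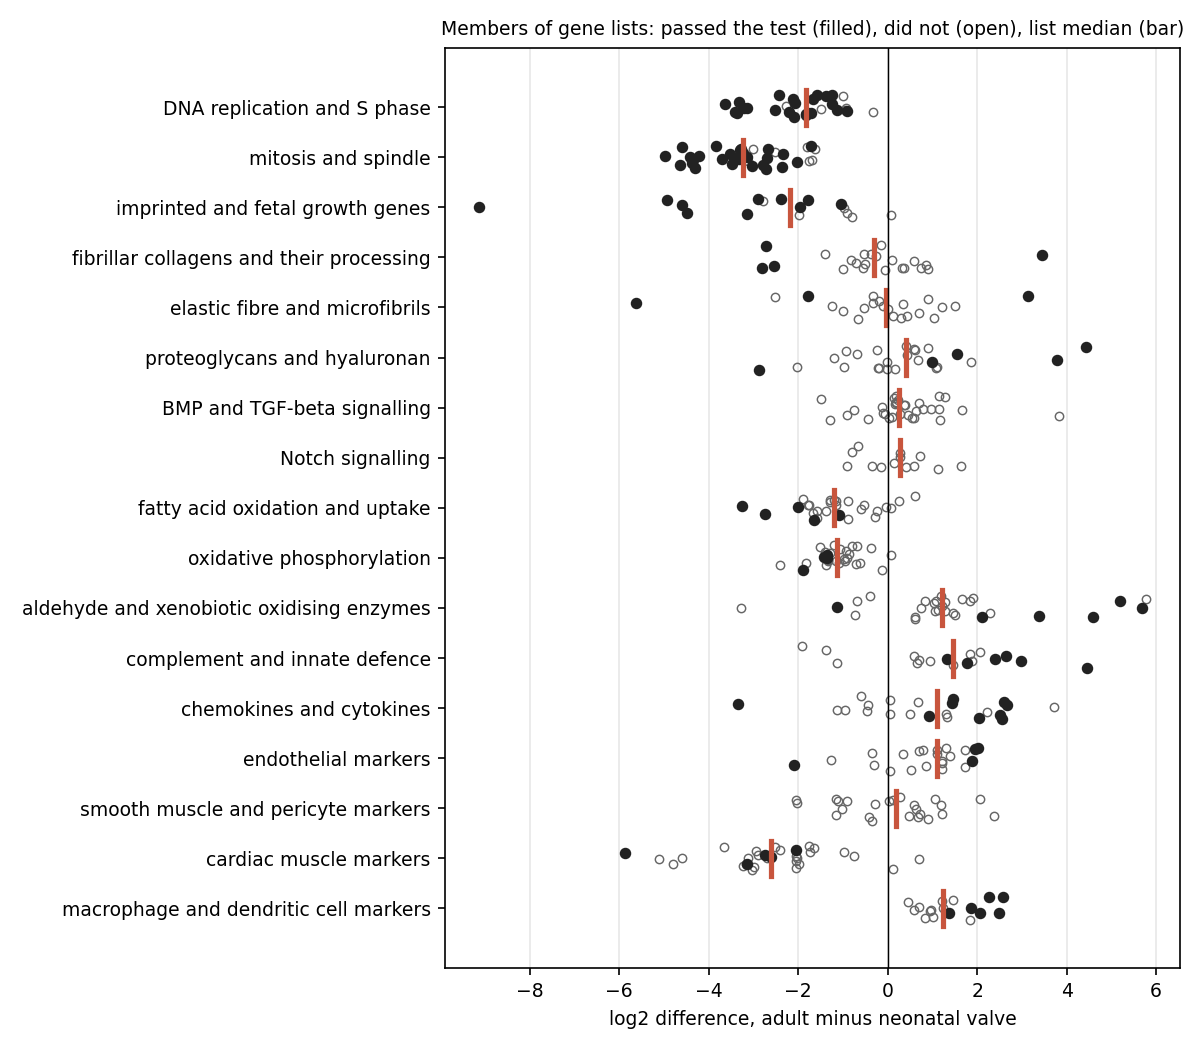
Log2 difference, adult minus neonatal valve, of each tested member of 17 gene lists. Filled points passed in limma at an adjusted p under 0.05, open points did not, and the bar is the list median. The replication, mitosis and imprinted lists lie almost wholly below 0, all 17 macrophage markers lie above 0, and collagens and elastic fibre genes spread to both sides.

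The matrix genes did not move as a block. Of 22 genes of fibrillar collagens and their processing, 1 rose and 3 fell, and the list median was -0.31. Col3a1, the chain of type III collagen, read 15548, 19851 and 16291 on the neonatal and 15596, 14678 and 12925 on the adult arrays, an overlap with a difference of -0.26 ± 0.43. Col1a1, the main chain of type I collagen, read 8337, 10834 and 7068 against 1979, 1249 and 745 (-2.81 ± 0.77; limma adjusted p = 0.0438), a call lost without any 1 valve array but kept with the beta-actin ratio as a covariate. Col11a1, which nucleates thin fibrils, fell 6.55-fold (1214, 520 and 709 against 130, 145 and 84.4). P4ha3, a subunit of the enzyme that hydroxylates collagen, fell 5.84-fold. PCOLCE2, an enhancer of collagen propeptide removal, went the other way, from 366, 378 and 275 to 5511, 4048 and 2218 (3.45 ± 0.48). These last 3 genes were called in every fit without 1 valve array. Of 18 other collagens 4 fell, with a median of -0.70. They included Col9a1 of cartilage (1029, 395 and 530 against 24.5, 15.1 and 11.5, the adult values in the range of absent RNA) and Col6a3, a chain of beaded microfibrils, which fell 2.16-fold. Both were called in every fit without 1 valve array. With the covariate 2 of the 4 fibrillar calls were kept, those of Col1a1 and Col11a1, and 1 of the 4 others, that of Col9a1.

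Elastic fibre genes had a median of -0.05, equal to that of all genes, with 1 of 22 called higher and 2 lower. Fbn2, the fibrillin of developing tissue, read 2503, 1666 and 2134 against 27.9, 46.6 and 57.8 (-5.62 ± 0.53; limma adjusted p = 0.000367), while Fbn1, a fibrillin with high signals at both ages, read 6735, 6666 and 5224 against 6966, 4885 and 3446 (-0.33 ± 0.45). Thus 1 fibrillin fell to near the low-signal range and the other overlapped between ages. Mfap2, a microfibril protein, fell 3.46-fold. Efemp1, a fibulin, read 569, 1394 and 384 against 6217, 5293 and 6265 (3.13 ± 0.74), a call lost without neonatal valve 1 or 3 or adult valve 1 or 3. Eln, elastin itself, did not overlap (8123, 2337 and 5144 against 1857, 764 and 370) but did not pass (-2.51 ± 1.21; limma adjusted p = 0.212). All 3 calls were kept with the beta-actin ratio as a covariate.

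Proteoglycans leaned the other way: 4 of 25 rose and 1 fell, with a median of 0.42. The small leucine-rich proteoglycans bind collagen fibrils and set their spacing. Dcn, decorin, read 9876, 11823 and 8489 against 18170, 17399 and 25206 (1.00 ± 0.19), Prelp read 140, 120 and 162 against 3304, 2941 and 752 (3.79 ± 0.69), and Omd, osteomodulin, read 448, 339 and 167 against 17782, 11615 and 1227 (4.43 ± 0.98). Adult valve 3 was the lowest adult array for Prelp and Omd and the highest for Dcn. The calls of Dcn and Prelp were kept without any 1 valve array, while that of Omd held only without adult valve 3. Lum, lumican, read 11806, 10917 and 12767 against 15179, 18132 and 24515 without overlap but did not pass (0.68 ± 0.20; limma adjusted p = 0.0523). Vcan, versican, the large proteoglycan of the embryonic cushion, overlapped (6994, 5855 and 7198 against 4903, 5219 and 11336). Acan, aggrecan of cartilage, read 1126, 116 and 848 against 35.4, 85.7 and 91.4 (-2.88 ± 0.72), a call lost without neonatal valve 1 or 3 or adult valve 1 or 3. None of the 5 calls of this list was kept with the beta-actin ratio as a covariate. The log2 differences were then 1.18 for Dcn, -3.07 for Acan, 2.57 for Prelp, 3.44 for Omd and 1.18 for Podn (1.56 without the covariate).

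**Figure D3:**
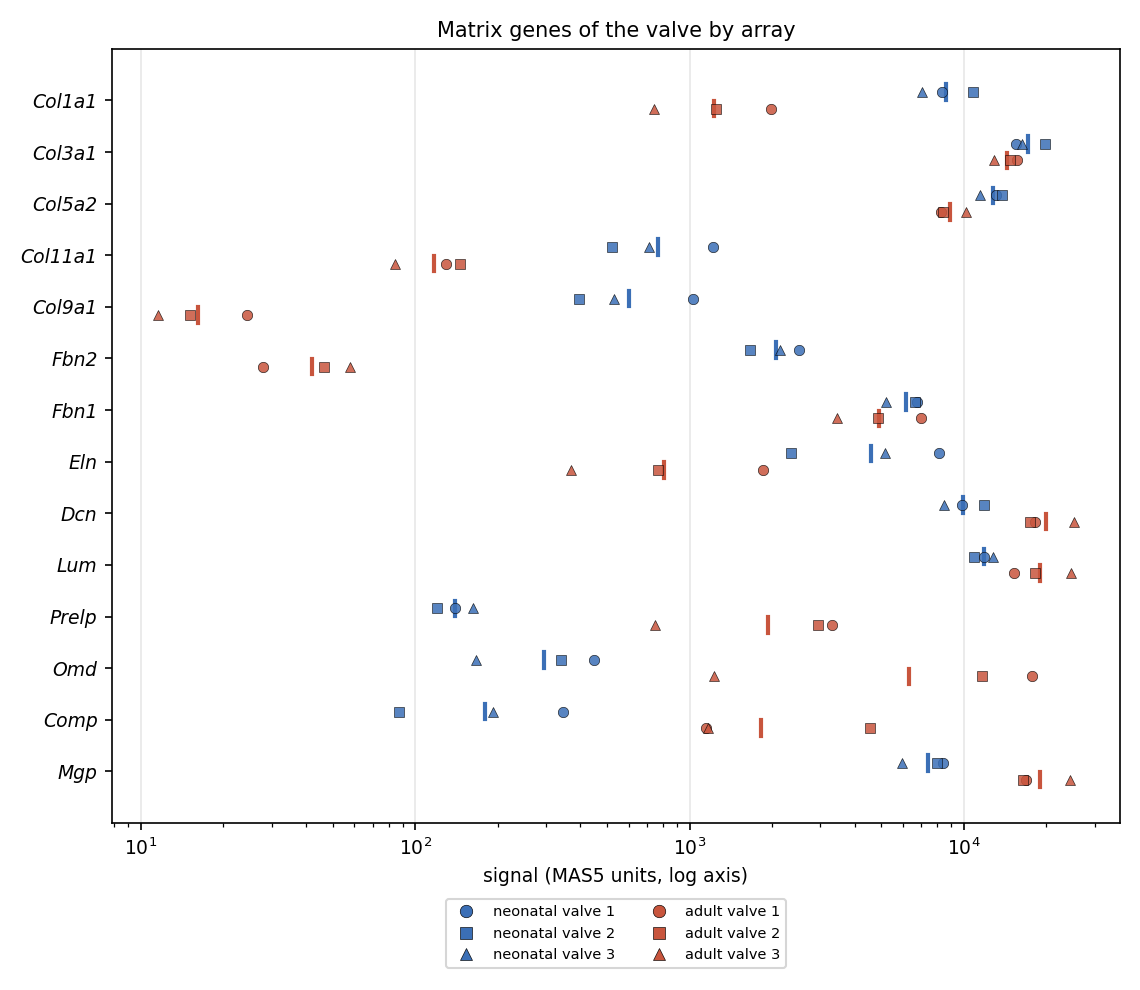
Signal of 14 matrix genes on each valve array (log axis, MAS5 units; neonatal blue, adult red, bars at geometric means). Col11a1, Col9a1 and Fbn2 lie lower in adult valves and Prelp, Omd and Comp higher, while Col3a1 and Fbn1 overlap.

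Among 14 cartilage and tendon genes, 4 rose and 4 fell. Cytl1, a secreted protein first known from cartilage, rose from 1089, 302 and 1110 to 13360, 15729 and 18979 (4.47 ± 0.57; limma adjusted p = 0.00146), and was kept without any 1 valve array and with the covariate. Comp, a matrix protein of cartilage and tendon, read 347, 87.2 and 192 against 1147, 4559 and 1165 (3.34 ± 0.60), with adult valve 2 highest, and was called in every fit without 1 valve array. Scx, a transcription factor of tendon, read 705, 220 and 456 against 1100, 1305 and 1014 (1.45 ± 0.36), a call lost without any array but neonatal valve 1. The falls were those of Col11a1, Col9a1, Acan and Col9a2, the last lost without neonatal valve 1 or 2. With the covariate 3 of the 8 calls were kept, those of Col9a1, Col11a1 and Cytl1. Among 15 bone and mineral genes 4 rose, with a median of 1.36. Ankh, which exports pyrophosphate, an inhibitor of mineral growth, read 489, 326 and 361 against 726, 1060 and 1739 (1.51 ± 0.30) and was called in every fit without 1 valve array. Mgp, an inhibitor of calcification, read 8429, 8014 and 5971 against 16891, 16439 and 24355 (1.36 ± 0.37), a call lost without any 1 valve array. Spp1, osteopontin, overlapped (416, 252 and 422 against 3731, 3239 and 169). With the beta-actin ratio as a covariate 0 of the 4 bone calls in limma were kept. The log2 differences were then 1.69 for Ankh, 0.65 for Mgp, 3.44 for Omd and 1.78 for Msx1.

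Basement membrane and matricellular genes that changed all fell, 3 of 16 and 3 of 18. Tnc, tenascin C, a matrix protein of growing and remodelling tissue, read 2730, 3565 and 3252 against 85.3, 203 and 188 (-4.42 ± 0.40; limma adjusted p = 0.000297). Cthrc1, a secreted protein of collagen-producing cells, read 8546, 8579 and 3617 against 269, 93.2 and 70.6 (-5.73 ± 0.64). Both were lower on every adult array by more than 10-fold and were kept without any 1 valve array and with the covariate. Postn, periostin, a marker of valve mesenchyme, read 15988, 13834 and 17683 against 8215, 10393 and 7532 without overlap but did not pass (-0.87 ± 0.50). Nid2, a basement membrane linker, fell 7.18-fold and was called in every fit without 1 valve array. Col4a1 and Col4a2, the main chains of type IV collagen, fell by 1.85 and by 2.20 on the log2 scale, but the first call was lost without any 1 valve array and the second without neonatal valve 1 or 2 or adult valve 3. With the covariate 1 of the 3 basement membrane calls was kept, that of Col4a2, and 2 of the 3 matricellular calls.

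Among 22 matrix proteases and inhibitors, 2 rose and 1 fell. Adamts15, a protease that cleaves versican, read 221, 276 and 293 against 859, 1364 and 1997 (2.34 ± 0.42). Ctss, cathepsin S, an elastin-degrading protease of macrophages, read 433, 805 and 854 against 1857, 3974 and 2797 (2.04 ± 0.37). Mmp15, a membrane-bound protease, read 577, 778 and 569 against 90.9, 111 and 37.7 (-3.13 ± 0.42). All 3 were called in every fit without 1 valve array, and 1, that of Ctss, was kept with the covariate.

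Few BMP, TGF-beta, Notch and Wnt genes passed, where 10.1% of all genes did. Whether these counts lie below that share was not tested. Of 32 BMP and TGF-beta genes 0 passed in limma (6 had an unadjusted p under 0.05, and 0 passed with robust variance estimates), with a median of 0.26. Bmp2 (906, 832 and 1036 against 571, 1011 and 2187), Bmp4 (795, 615 and 580 against 549, 1170 and 1915) and Tgfb2 (951, 621 and 1092 against 849, 807 and 718), ligands that act in the cushions of the embryonic heart, all overlapped. Of 13 Notch genes 0 passed (2 at an unadjusted p under 0.05, and 0 with robust variance estimates). Notch1, the receptor whose loss is linked to bicuspid valves, read 1143, 1261 and 1338 against 1061, 1644 and 3777. Of 25 Wnt genes 1 passed, the antagonist Sfrp4, which read 101, 160 and 128 against 314, 278 and 653 (1.59 ± 0.37) and lost its call without neonatal valve 1 or 3 or adult valve 3. Of 25 genes of the IGF, FGF and PDGF families and related growth factors 1 rose and 3 fell, with a median of 0.23. Over all genes 4.15% rose and 5.99% fell. Fgf2, a fibroblast growth factor, rose by 1.54 ± 0.30 from 77.1, 68.0 and 68.4 to 230, 169 and 225, in every fit without 1 valve array. Besides Igf2, Igf2r, the receptor that clears it, fell from 4596, 6482 and 4850 to 2195, 2422 and 3053 (-1.05 ± 0.23), and Mdk, the growth factor midkine, from 1206, 1243 and 735 to 368, 371 and 542 (-1.30 ± 0.32). The Igf2r call was lost without neonatal valve 2 or adult valve 1, and that of Mdk without neonatal valve 1 or 2 or adult valve 1 or 2. With the covariate 1 of these 4 calls was kept, that of Igf2, and the Sfrp4 call was not. Leaving out 1 valve array gave 0 or 1 call among the BMP and TGF-beta genes and 0 or 1 among the Notch genes.

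Of 31 transcription factors of valves and cushions, 3 rose and 2 fell, with a median of -0.29. Sox4, needed for the outflow valves of the embryo, read 6221, 4275 and 5469 against 1811, 1347 and 2611 (-1.50 ± 0.29), a fall called in every fit without 1 valve array and with the covariate. Msx1, a cushion mesenchyme factor, rose by 2.10 ± 0.43 and lost its call without adult valve 1. Nkx2-5, a cardiac factor, fell by 2.05 on the log2 scale, with its highest adult value on adult valve 2, the array richest in heart muscle RNAs, and kept its call only without that array. Nfatc1, which marks valve endothelium, did not overlap (755, 803 and 632 against 970, 1274 and 1819) but did not pass (0.85 ± 0.36). Gata4 and Hand2 overlapped between ages. With the covariate 1 of the 5 calls was kept, that of Sox4.

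Enzymes that oxidise aldehydes, drugs and amines leaned upward, with 5 of 29 higher, 1 lower and a median of 1.22. Aox1, aldehyde oxidase, read 31.9, 46.6 and 71.3 on the neonatal arrays, close to the low-signal range, and 2233, 1932 and 1185 on the adult arrays (5.19 ± 0.52; limma adjusted p = 0.00049). Maob, a monoamine oxidase of mitochondria, read 344, 247 and 147 against 1110, 2861 and 4434 (3.38 ± 0.52). Both were kept without any 1 valve array and with the covariate. Aldh3a1, an aldehyde dehydrogenase, read 23.6, 35.1 and 9.21 against 985, 1897 and 558, a call lost without neonatal valve 1 or 3. With the covariate 3 of the 6 calls were kept, those of Aox1, Maob and Aldh3a1. Gsta1, a glutathione transferase, read 162, 345 and 127 against 5351, 6536 and 4404 (4.80 ± 0.34; limma adjusted p = 0.000169). Among the 32 glutathione, selenium and antioxidant genes 4 rose and the median was 0.31. Besides Gsta1 these were Gclc, the rate-limiting enzyme of glutathione synthesis (324, 321 and 442 against 863, 726 and 978, with a second probe set at -0.08 that did not pass), Sod3, the secreted superoxide dismutase (184, 153 and 166 against 1756, 1806 and 560), and Selenop, the selenium carrier (7604, 10198 and 8437 against 17220, 19380 and 26203). All 4 were called in every fit without 1 valve array, and 1, that of Gsta1, was kept with the covariate.

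Fatty acid oxidation and oxidative phosphorylation leaned downward and moved with heart muscle RNAs. Of 27 fatty acid genes 5 fell (median -1.20), and of 28 respiratory chain genes 4 fell (median -1.12). Cpt1b, the muscle form of the enzyme that admits fatty acids to mitochondria, read 4501, 4199 and 2499 against 209, 1196 and 219, and Fabp3, the fatty acid carrier of heart, read 9841, 7593 and 5947 against 1015, 3348 and 430. In both, adult valve 2 was the highest adult array. The Cpt1b call was lost without neonatal valve 1 or 2 or adult valve 1 or 3, and that of Fabp3 without neonatal valve 1 or 2 or adult valve 1. The 31 heart muscle markers summed to 249502, 255131 and 243635 on the neonatal arrays and to 46316, 217957 and 13599 on the adult arrays, adult valve 2 again nearest to the neonatal ones. Of these markers 5 fell (median -2.61), among them Tnni1, the slow troponin I of fetal heart (8889, 4752 and 5105 against 72.4, 134 and 112), which was called in every fit without 1 valve array. Myh6, the atrial myosin heavy chain, read 16251, 20264 and 20071 against 5099, 19570 and 945. Without adult valve 2 there were 12 falls among heart muscle markers, 17 among respiratory chain genes and 9 among fatty acid genes. Without any other 1 of the valve arrays the respiratory chain count was 0, and 0 were called with robust variance estimates or with the beta-actin ratio as a covariate, although 23 had an unadjusted p under 0.05. With that covariate 0 of the 5 fatty acid calls and 0 of the 5 heart muscle calls in limma were kept. How far the heart muscle RNAs account for the metabolic genes was not tested.

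Genes of innate defence rose. Of 17 complement and innate defence genes 6 rose, with a median of 1.46. Complement C1 is the protease complex that starts the classical pathway, and its 2 proteases and their inhibitor moved together. C1r read 761, 1292 and 567 against 5787, 5072 and 2769 (2.40 ± 0.37), C1s read 1622, 3853 and 1371 against 14382, 10797 and 13684 (2.65 ± 0.36), and the inhibitor Serping1 read 852, 1159 and 685 against 7678, 7497 and 5751 (2.98 ± 0.25; limma adjusted p = 0.000181). Every adult array lay above every neonatal array in all 3. Lbp, which carries bacterial lipopolysaccharide, read 54.6, 156 and 47.9 against 1607, 1376 and 1977 (4.46 ± 0.60), and its receptor Tlr4 read 111, 127 and 103 against 245, 474 and 491 (1.76 ± 0.31). C3, the central complement protein, did not pass (279, 1437 and 187 against 238, 137 and 129). The 5 rises with values here were called in every fit without 1 valve array, and with the covariate 3 of the 6 calls were kept, those of Serping1, Tlr4 and C5ar1, a receptor for a complement fragment.

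Of 22 chemokine and cytokine genes 8 rose and 1 fell (median 1.11). Il33, an alarm cytokine kept in nuclei, read 475, 983 and 275 against 2324, 2898 and 3918 (2.56 ± 0.43). Ackr3, a scavenging receptor for Cxcl12, read 790, 1653 and 617 against 5949, 4819 and 5150 (2.51 ± 0.37), while Cxcl12 itself overlapped (3307, 1355 and 2318 against 4177, 2535 and 1076). Cx3cl1, a chemokine that attracts monocytes, rose 2.74-fold. These 3 rises were called in every fit without 1 valve array, and with the covariate 3 of the 9 calls were kept, those of Il33, Ackr3 and the chemokine Ccl6. Leaving out neonatal valve 1 left 3 of the 8 rises in number, and leaving out adult valve 1 or 2 left 4. Of 16 antigen presentation genes 3 rose, B2m, the light chain of class I molecules, from 3580, 4044 and 4665 to 9314, 12464 and 21731, with a rise in every fit without 1 valve array. With the covariate 1 of the 3 calls was kept, that of Ctss. Cd74, the class II invariant chain, overlapped (790, 488 and 2715 against 919, 2085 and 817).

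Of 21 macrophage markers on the list 17 were tested. All 17 differences lay above 0, and 6 passed (median 1.23). F13a1, a transglutaminase of resident macrophages, read 268, 756 and 356 against 2053, 2892 and 2204, a 5.66-fold rise (limma adjusted p = 0.00636). Fcgr1a, a high-affinity immunoglobulin receptor, read 118, 210 and 123 against 358, 780 and 519 (1.86 ± 0.34). Both were called in every fit without 1 valve array. Cd163, the haemoglobin scavenger receptor, read 59.3, 211 and 166 against 838, 914 and 587 (2.59 ± 0.66), and Mrc1, the mannose receptor, read 549, 1012 and 802 against 1692, 2584 and 1799 (1.38 ± 0.33). Their calls held only without neonatal valve 2, the neonatal array with the most macrophage RNA (summed signal 20406 against 12673 and 9020). Csf1r, the receptor that macrophages depend on, did not overlap but did not pass (1.02 ± 0.36). Leaving out neonatal valve 1 or 3 gave 2 rises in place of 6, and leaving out neonatal valve 2 gave 7. With the covariate 5 members rose, 3 of them among the 6, and the median was 2.23.

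Endothelial markers had a median of 1.10, with 3 of 22 higher and 1 lower. Vwf, von Willebrand factor, read 1134, 1156 and 1398 against 3805, 4282 and 7463 (2.02 ± 0.44), and Eng, endoglin, read 518, 504 and 509 against 811, 2400 and 4000 (1.96 ± 0.49). Mmrn2 of the vessel lining rose by 1.90 ± 0.48, and Cldn5, a tight junction protein, fell by 2.09 on the log2 scale. Pecam1 did not overlap (332, 290 and 272 against 395, 710 and 1378) but did not pass (1.30 ± 0.42). Summed over the list, the signal was 26052, 23126 and 19303 on the neonatal and 29742, 43162 and 68743 on the adult arrays, highest on adult valve 3. The Vwf call was lost without neonatal valve 1 or 2 or adult valve 3, and that of Cldn5 without neonatal valve 1 or 2 or adult valve 2 or 3. The calls of Eng and Mmrn2 held only without adult valve 1. The number of rises was 0 without neonatal valve 1 or 2 and 7 without adult valve 1, and none of the 4 calls was kept with the covariate.

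Among 24 vasoactive genes 2 rose and 1 fell. Agtr2, the angiotensin receptor of fetal tissue, read 1136, 1750 and 198 against 27.8, 3.59 and 38.4 on its brightest probe set, and its adult values lie in the range of absent RNA (-5.55 ± 0.92, called in every fit without 1 valve array). A second probe set for Agtr2 did not pass. Ace, angiotensin-converting enzyme, read 258, 89.3 and 155 against 516, 512 and 477 (1.71 ± 0.46), and Ptgs1, the constitutive cyclooxygenase, read 977, 865 and 576 against 6433, 4506 and 3531 (2.57 ± 0.72). The Ptgs1 call was lost without any 1 valve array and that of Ace without any but neonatal valve 1. With the covariate 0 of the 3 vasoactive calls in limma were kept. Kcnma1, the large potassium channel of smooth muscle, rose by 3.33 ± 0.76 and lost its call without adult valve 1 or any neonatal array, and with the covariate.

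Clock and immediate early genes changed in small numbers. Of 18 clock genes 4 rose, with a list median of 0.16. Npas2 and Clock are partners of Bmal1 in the activating arm of the clock. Npas2 read 146, 262 and 227 against 1224, 923 and 626 (2.12 ± 0.39) and was called in every fit without 1 valve array. Bmal1 (91.6, 144 and 319 against 364, 802 and 421) and Clock (1369, 1337 and 1666 against 3898, 2793 and 2287) held their calls only without neonatal valve 3 and only without adult valve 3. With the covariate 1 of the 4 calls was kept, that of Rora, a nuclear receptor that drives Bmal1. Per2, of the repressing arm, overlapped (2015, 1828 and 1023 against 2951, 1773 and 1037), and the labels used here give no hour of collection. Of 22 immediate early genes 3 rose: Zfp36, which destabilises cytokine transcripts, Maff and Atf3. The calls of Zfp36 and Maff were kept without any 1 valve array, that of Atf3 only without adult valve 2, and 0 of the 3 in limma with the covariate. Fos and Egr1 did not pass.

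Marker lists of other tissues showed what each array carried. Sums cover every list member on the array, also those below the signal filter, and medians cover the tested ones. The 16 valve interstitial and mesenchyme markers summed to 90094 to 103010 on the neonatal and 92174 to 110346 on the adult arrays. The median log2 signal of the 15 tested was 12.77, 12.52 and 11.82 against 10.95, 10.35 and 9.99. The median of their differences, however, was 0.53, with 9 above 0 and 6 below. Of these genes 2 rose and 2 fell, so the lower array medians do not show a fall of the list. The list holds bright genes such as Dcn and Col1a1 that other connective tissues also express, so it does not single out leaflet stroma. Smooth muscle markers summed to 86900, 70973 and 64893 against 151774, 109863 and 28186, lowest on adult valve 3, and 0 of 24 passed in limma (4 at an unadjusted p under 0.05, and 0 with robust variance estimates). Over all genes 10.1% passed. Thymocyte markers summed to 11269, 4946 and 74377 against 2786, 4356 and 5382, highest on neonatal valve 3. Squamous and mucosal epithelium markers summed to 12238, 56549 and 13236 against 6536, 5716 and 4098, and skeletal muscle markers to 29776, 49083 and 23558 against 8190, 8986 and 4846, both highest on neonatal valve 2. The median log2 signal of the mitosis list was 10.01, 9.88 and 10.07 on the 3 neonatal arrays. The mitosis list's median difference was -3.09 without neonatal valve 3 and -3.34 without neonatal valve 2. The part of thymocyte, epithelial and skeletal muscle RNAs in the falls was not tested.

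**Figure D4:**
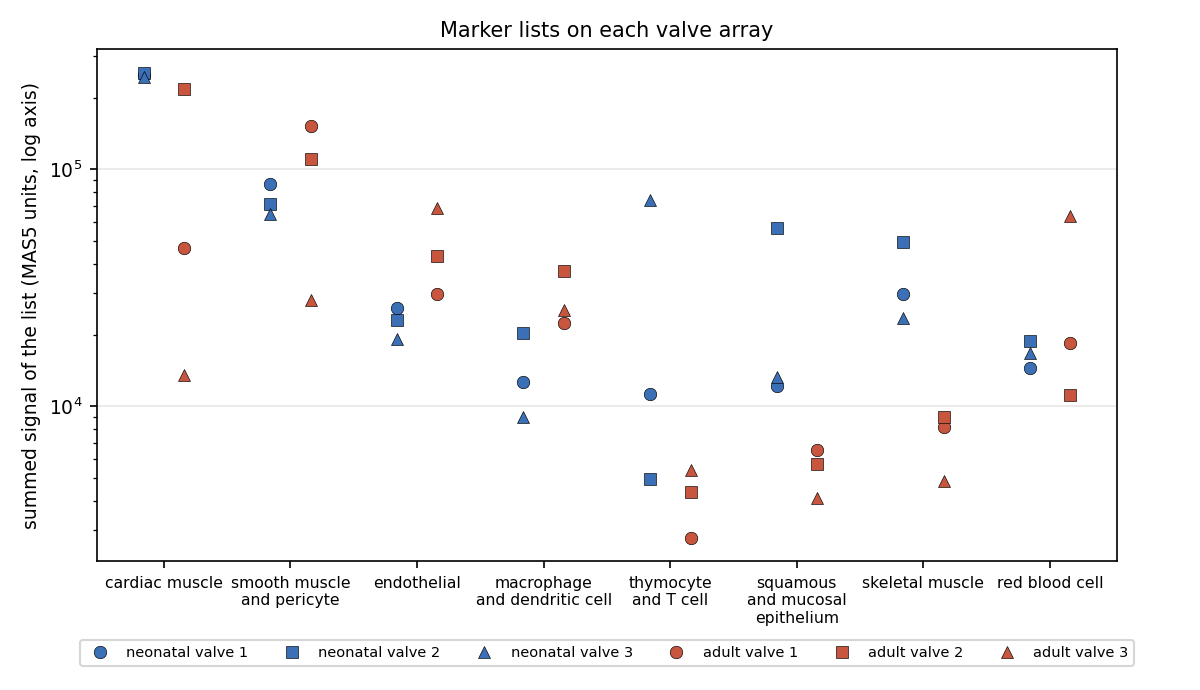
Summed signal of 8 marker lists on each valve array (log axis, MAS5 units). Heart muscle RNAs are nearly as high on adult valve 2 (217957) as on the neonatal arrays (243635 or more), thymocyte RNAs stand out on neonatal valve 3, epithelial RNAs on neonatal valve 2 and red blood cell RNAs on adult valve 3.

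The proximal aorta gave a second age comparison that shares no arrays with that of the valve. Both comparisons share 1 estimate of the spread. Of the 1709 valve calls, 86.8% had an aorta difference of the same sign. The same share over all 18552 probe sets was not counted. Called in the aorta as well were 545 (31.9% of the valve calls), 539 of them in the same direction. These were 40.2% of the 1357 aorta calls, where 9.21% of all probe sets were called in the valve. The mitosis list had a median of -2.85 and the replication list of -1.87 in the aorta, against -3.24 and -1.83 in the valve. Macrophage markers had a median of -0.75 in the aorta and 1.23 in the valve, and endothelial markers -0.95 and 1.10, but 0 of either list passed the limma test of the difference between tissues. That test called 11 of 18552 probe sets (0.0593%), 9 with a higher (0.0485%) and 2 with a lower (0.0108%) difference in the valve, with 2170 at an unadjusted p under 0.05. Hs3st1, a heparan sulfate sulfotransferase, rose in the valve (244, 221 and 168 against 956, 821 and 1093; 2.19 ± 0.25) and had a difference of -0.60 in the aorta. Igf2bp3 fell in both, by 9.14 in the valve and by 2.64 in the aorta on the log2 scale. Valve and aorta arrays also differed in the beta-actin ratio (7.24 or more against 2.59 or less) and in Xist and Eif2s3y. The parts of RNA quality or labelling and of the animals' sex in these differences cannot be told apart from that of tissue.

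**Figure D5:**
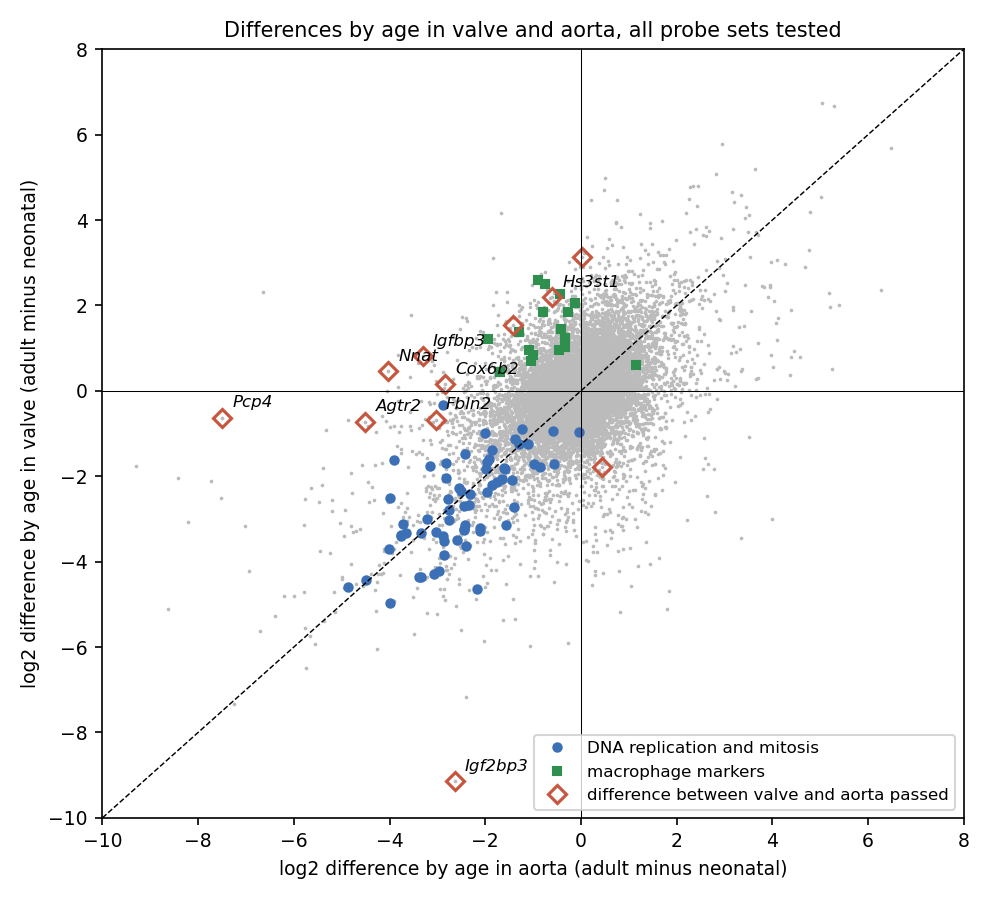
Log2 difference by age in the valve against that in the aorta for all 18552 probe sets, with replication and mitosis genes in blue, macrophage markers in green, and probe sets whose difference between tissues passed as red diamonds. Replication and mitosis genes lie below 0 on both axes, macrophage markers lie above 0 in the valve, and the dashed line marks equal differences.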

How the data were processed

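RNA of 12 rat tissue samples was labelled by T7 in vitro transcription and hybridised to Affymetrix arrays, as the label protocol states. The authors deposited an intensity for every probe set, not log-transformed, and the submitters' processing notes name Affymetrix Expression Console and MAS5. For neither is a version or scaling target stated in the sources used here. Signals below 1 were set at 1 and log2 was taken. Probe sets above the median of all values (171.944) on at least 3 of 12 arrays were kept (18552, 59.8%), without control probe sets, and 14065 of these have 1 gene symbol in the platform annotation. Group means over all 12 arrays were estimated in limma 3.58.1 (R 4.3.3; eBayes with a trend, 8 residual degrees of freedom, two-sided, Benjamini-Hochberg over all probe sets tested). Errors are standard errors of that fit. The fit was tested on simulated data. Precision is limited by 3 arrays per group.

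Where a listed gene had several probe sets, that of highest average signal over the 12 arrays stood for it. The 47 lists, the comparison and the naming rule were chosen with earlier results of these data known. The rule named the 15 largest rises and 15 largest falls on the log2(signal + 32) scale among called probe sets whose valve arrays did not overlap and whose higher group lay at least 1 log2 unit above the median of all values. It also named up to 4 called members of each list by adjusted p, the first 2 tested members of each list and up to 8 probe sets each way for the difference between tissues. The other genes given were chosen after their values were seen, for their role in the list. Promoters came from RefSeq (GRCr8), with an entry for 31 of 35 mitosis and 26 of 29 replication genes. Alternatives were other scalings, filters and variance settings, the beta-actin ratio as a covariate, the valve arrays alone, and fits without each array.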

Additional observations from a re-analysis of the deposited data

Results flagged for a closer look

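The test of the difference between the age difference in valve and that in aorta passed for 11 probe sets, of which 8 have a gene name. Differences are given as valve minus aorta in log2. Pcp4, a calmodulin-binding protein, had 6.88: it overlapped between ages in the valve (188, 271 and 49.5 against 90.5, 58.6 and 129) and fell in the aorta, from 3972, 4096 and 2318 to 39.6, 13.6 and 11.7, values in the range of absent RNA. Nnat, an imprinted membrane protein, had 4.49 (0.46 in the valve, -4.03 in the aorta), and Igfbp3, a carrier of insulin-like growth factors, had 4.13 (0.82 in the valve, -3.31 in the aorta). Agtr2, on a probe set other than its brightest, had 3.79. Cox6b2 had 2.99, Hs3st1 had 2.78 and Fbln2, a fibulin, had 2.36. Igf2bp3 had -6.50, with -9.14 in the valve and -2.64 in the aorta. In limma the Igf2bp3 difference passed in all 22 alternatives, while the others lost their calls in 8 to 15 of them.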

How the results depend on the processing

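The count of 1709 probe sets was 2799 with array quality weights (1301 higher, 1498 lower) and 274 with the beta-actin ratio as a covariate (117 higher, 157 lower). It stayed within 1.5 times under the other planned settings (1316 to 1786). Leaving out 1 of the 12 arrays gave 662 to 3093 calls, 305 to 1406 of them higher and 357 to 1687 lower. The difference between tissues, 11 calls, had 4 and 6 with the stricter filters (6 of 12 arrays, 3 of the 6 valve arrays), 165 with array weights, 7 with robust variance estimates, 27 with the covariate, and 1 to 37 without 1 array. The replicate numbers were not shown to pair the samples: deviations of same-numbered neonatal and adult valves correlated at 0.09, 0.08 and 0.16, and not every array correlated best with its own number. With the replicate number as a block there were 1458 calls (609 higher, 849 lower) and 1 for the difference between tissues. Of 133 named calls, 69 were kept without any 1 valve array and 40 with the covariate. The losses were 25 with the valve arrays alone, 20 with no filter, 17 with quantile normalization, 15 with the block or with robust variance, 11 with centred arrays, 3 with log2(signal + 32) and 2 with array weights. No called value changed sign. With 3 arrays a group, differences that did not pass may still be real, and signals in the range of absent RNA give no exact fold.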

Other observations

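Cholesterol and fatty acid synthesis genes had a median of -0.40 in the valve, and 0 of 21 passed in limma (5 at an unadjusted p under 0.05, and 0 with robust variance estimates). Of 19 adipocyte markers 0 passed (3 at an unadjusted p under 0.05, and 0 with robust variance estimates), with a median of 0.62. Of 10 Hox genes tested 0 passed (1 at an unadjusted p under 0.05, and 0 with robust variance estimates), with a median of 0.17. Over all genes 10.1% passed, and whether these lists lie below that share was not tested.

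Itga11, an integrin subunit that binds collagen, read 113, 28.6 and 116 on the neonatal and 1131, 602 and 182 on the adult arrays (2.79 ± 0.77), and its call in limma held only without adult valve 3. Itgbl1, a secreted integrin-like protein, read 862, 65.2 and 236 against 2720, 3683 and 1648 (3.43 ± 0.95), a call that held only without neonatal valve 1. Uchl1, a ubiquitin hydrolase of neurons, read 430, 780 and 442 against 70.3, 100 and 45.8 (-2.95 ± 0.60), the only 1 of 11 Schwann cell and neuron markers to pass, and lost its call without neonatal valve 2. That array had the highest sum of this list (8363, 19948 and 5818 against 12891, 9618 and 8246). Its member Nefl read 1195 there and 68.9 or less on the other valve arrays. The part of neuron RNAs in the Uchl1 fall was not tested. Gpm6a, a membrane glycoprotein of mesothelium, read 2175, 1642 and 705 against 7286, 4216 and 4513 (1.93 ± 0.50), a call lost without any 1 valve array.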
